A study of Mus musculus with 8 samples.

Results

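Gpr83, Nrp1 and Folr4, 3 genes for cell surface proteins of regulatory T (Treg) cells, were followed across spleen CD4+ T cells of 4 groups. They were taken by symbol from a table of 24016 genes. They were chosen by their levels in these same groups, so their values are described here without a test. Monoclonal Treg and monoclonal non-Treg cells came from the strain NOD.TCRab.FoxP3GFP.Rag-/-, in which all T cells carry a single αβ receptor and no new receptors are assembled, for want of a Rag recombinase gene. Polyclonal Treg and polyclonal non-Treg cells came from NOD.FoxP3GFP mice, which the labels call wild type and whose receptors are diverse. Every group shares the NOD background, prone to autoimmune diabetes, and the FoxP3GFP reporter, whose fluorescence separated Treg from non-Treg cells. Each group had 2 libraries, A and B. The labels give no age, and they do not say whether A and B are from separate animals. Errors and p-values thus cover library-to-library spread, possibly only technical. Strain, Rag genotype and receptor differed together between the mice and cannot be told apart.

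Foxp3 is the transcription factor that establishes and holds the Treg programme, much of which is displayed on the cell surface. Gpr83 encodes a receptor coupled to G proteins, for which the neuropeptide PEN has been proposed as a ligand. Nrp1 encodes neuropilin-1, a coreceptor for class 3 semaphorins and vascular endothelial growth factors that in mice is carried by most thymus-derived Treg cells and binds Sema4a on neighbouring cells. Folr4 encodes folate receptor 4, a protein anchored in the membrane by a lipid, also called Juno for its role as the egg's receptor for the sperm protein Izumo1. On mouse CD4+ T cells it is high on Treg cells and, together with CD73, on anergic cells.

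Gpr83 and Folr4 are neighbours. In the deposited table, on build mm9, Gpr83 (NM_010287) spans chr9:14664698-14673943 on the plus strand and Folr4 (NM_022888) spans chr9:14704467-14708395 on the minus strand. Their 3′ ends face each other across 30523 bases, with 0 genes of the table between them. Nrp1 (NM_008737) spans chr8:130882973-131029375 on the plus strand. The table counts 1 copy of each. The regions around their start sites are shown to compare the sequence in which each gene begins. They are the RefSeq windows on GRCm38.p6 from 250 bases before to 50 bases after each gene's start, 5′ to 3′ on the gene's strand, with the motif matches in capitals. The Gpr83 window is chr9:14859960-14860259, the Nrp1 window chr8:128358823-128359122 and the Folr4 window, under its RefSeq symbol Izumo1r, chr9:14903718-14904017.
Gpr83: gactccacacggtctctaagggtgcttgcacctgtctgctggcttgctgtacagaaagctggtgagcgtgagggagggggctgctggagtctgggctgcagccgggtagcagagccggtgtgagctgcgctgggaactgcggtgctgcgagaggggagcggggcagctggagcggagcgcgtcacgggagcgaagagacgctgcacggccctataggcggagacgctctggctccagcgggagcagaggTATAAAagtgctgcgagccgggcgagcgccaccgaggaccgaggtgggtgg
Nrp1: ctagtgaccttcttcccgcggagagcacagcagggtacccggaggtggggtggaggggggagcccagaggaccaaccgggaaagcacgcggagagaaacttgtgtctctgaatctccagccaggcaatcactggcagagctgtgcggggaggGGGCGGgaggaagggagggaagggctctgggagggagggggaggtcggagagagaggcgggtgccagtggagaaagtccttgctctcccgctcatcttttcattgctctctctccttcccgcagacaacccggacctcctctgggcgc
Folr4: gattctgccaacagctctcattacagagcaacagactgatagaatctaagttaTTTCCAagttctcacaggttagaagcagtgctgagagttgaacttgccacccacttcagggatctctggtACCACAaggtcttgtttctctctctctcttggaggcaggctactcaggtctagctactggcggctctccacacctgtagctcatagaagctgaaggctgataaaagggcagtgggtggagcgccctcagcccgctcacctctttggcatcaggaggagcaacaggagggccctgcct

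The 3 windows were unlike in composition. Gpr83's held 67% G and C with 24 CG pairs, Nrp1's 64% with 14 pairs and Folr4's 52.33% with 3 pairs, against medians of 52.67% and 7 pairs over 32851 RefSeq windows. Both strands were searched for 7 motifs. Gpr83's window held TATAAA, present in 13.62% of all windows, with its first base at position -1 from the annotated start. Nrp1's held the GC box GGGCGG at position -98, found in 35.66% of windows. Folr4's held the NFAT core TGGAAA on the opposite strand at position -197, found in 21.43%, and the RUNX core TGTGGT on the opposite strand at position -127, found in 16.76%. The forkhead motif TGTTTAC, the STAT motif TTCNNNGAA and the AP-1 motif TGANTCA were in none of the 3 windows, against 3.65%, 8.298% and 7.808% of all windows. These are matches of letters within these windows only.

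Levels are given in CPM, counts per 1000000 reads that the table assigns to genes, recovered totals being 14076330 to 19722321 reads per library. A count of 0 allows up to 3 reads, or 0.152 to 0.213 CPM, for counting error only. All 3 genes passed the filter on low values (at least 1 CPM in at least 2 libraries), as 12881 genes did. Foxp3, on whose reporter the cells were sorted, stood at 2709 and 2667 CPM in monoclonal Treg libraries A and B, against 405 and 319 CPM in monoclonal non-Treg cells. It stood at 2349 and 2281 CPM in polyclonal Treg cells, against 81.9 and 84.2 CPM in polyclonal non-Treg cells. The sort is thus visible in both mice, with more Foxp3 in the monoclonal than in the polyclonal non-Treg libraries. T cell markers were present throughout, their 15 genes summing to 7346 to 7528 CPM in monoclonal Treg, 6225 to 6613 in monoclonal non-Treg, 8823 to 10353 in polyclonal Treg and 10285 to 10316 in polyclonal non-Treg cells. The 13 dendritic cell markers, which include major histocompatibility complex class II genes, summed to 5153 to 6803 CPM in Treg cells, against 19790 to 22245 CPM in non-Treg cells of the monoclonal mice, and to 78.0 to 89.8 CPM in polyclonal Treg and 194 to 245 CPM in polyclonal non-Treg cells. In bulk RNA, fewer cells of a type and less RNA per cell cannot be told apart.

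Gpr83 was high in polyclonal Treg cells and low in the other 3 groups. It was at 22.3 and 8.64 CPM in monoclonal Treg libraries A and B (339 and 153 reads), against 25.3 and 15.5 CPM in monoclonal non-Treg libraries. It was at 214 and 228 CPM in polyclonal Treg libraries, against 14.8 and 13.6 CPM in polyclonal non-Treg libraries. The 2 polyclonal Treg libraries were thus far above all others, while the monoclonal Treg libraries, which differed from each other more than those of any other group in relative terms, overlapped both kinds of non-Treg cells. The polyclonal Treg mean of 221 ± 9.32 CPM was 15.5 times the polyclonal non-Treg mean of 14.2 ± 0.841 CPM (SD, n = 2 each). The monoclonal Treg mean of 15.5 ± 9.64 CPM was 0.756 times the monoclonal non-Treg mean of 20.4 ± 6.93 CPM (SD, n = 2 each), with overlapping libraries.

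Nrp1 was high in the Treg cells of both mice. It was at 294 and 225 CPM in monoclonal Treg libraries, against 81.6 and 56.6 CPM in monoclonal non-Treg libraries. It was at 287 and 302 CPM in polyclonal Treg libraries, against 91.3 and 93.7 CPM in polyclonal non-Treg libraries. Treg libraries lay above non-Treg libraries in either mouse, and the Treg libraries of the 2 mice overlapped. The means were 260 ± 48.8 CPM in Treg cells, against 69.1 ± 17.7 CPM in non-Treg cells of monoclonal mice, a ratio of 3.76, and 295 ± 10.5 CPM in polyclonal Treg and 92.5 ± 1.70 CPM in polyclonal non-Treg cells, a ratio of 3.19 (SD, n = 2 each). The microRNA gene Mir1903 lies inside Nrp1 on the same strand (chr8:130883141-130883220, mm9), and reads within it cannot be told apart from those of Nrp1.

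Folr4 was higher in Treg than in non-Treg cells of both mice, at lower levels in the monoclonal mice. It was at 147 and 124 CPM in monoclonal Treg libraries, against 62.8 and 45.6 CPM in monoclonal non-Treg libraries. It was at 448 and 752 CPM in polyclonal Treg libraries, against 157 and 141 CPM in polyclonal non-Treg libraries. The monoclonal Treg libraries lay where the polyclonal non-Treg libraries did, with overlapping ranges, and the monoclonal non-Treg libraries lay below all others. The means were 135 ± 16.3 CPM in Treg cells, against 54.2 ± 12.2 CPM in non-Treg cells of monoclonal mice, a ratio of 2.50, and 599.8 ± 215 CPM in polyclonal Treg and 149 ± 11.7 CPM in polyclonal non-Treg cells, a ratio of 4.03 (SD, n = 2 each).

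**Figure D1:**
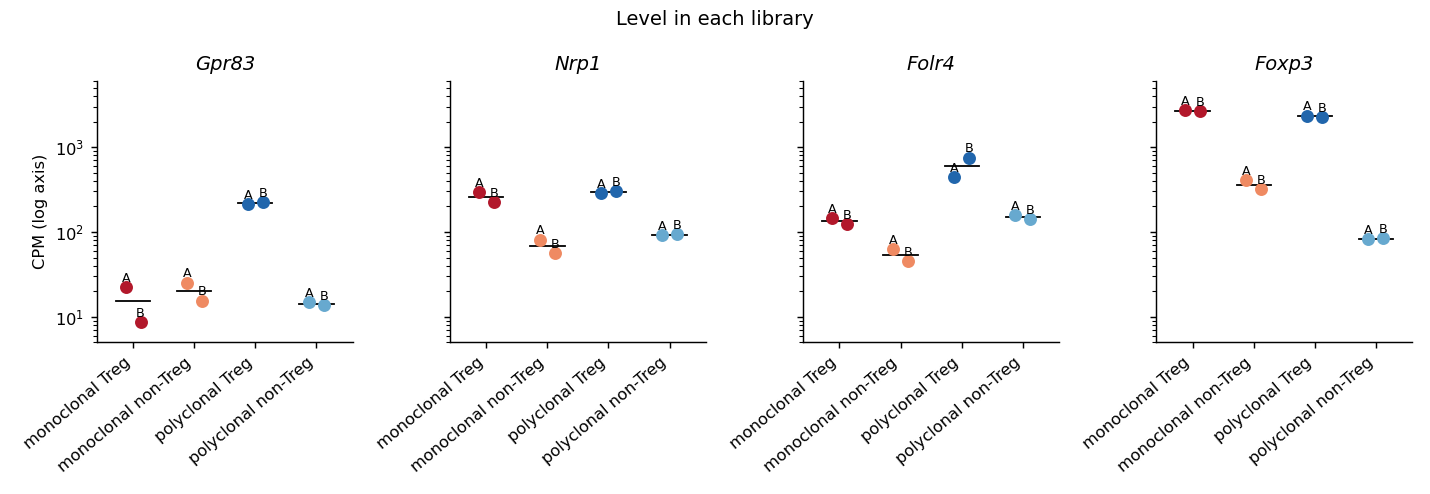
Level of each gene in CPM (log axis) in the 8 libraries, with A and B beside the points and a bar at the mean of each group of 2. Gpr83 stands high in polyclonal Treg cells at 214 and 228 CPM, Nrp1 is high in the Treg cells of both mice, and Folr4 steps down in both cell types of the monoclonal mice.

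Ordered by mean, Gpr83 ran from polyclonal Treg through monoclonal non-Treg and monoclonal Treg to polyclonal non-Treg, and the monoclonal Treg libraries overlapped both neighbours in that order. For Nrp1 the order was polyclonal Treg, monoclonal Treg, polyclonal non-Treg, monoclonal non-Treg, and the first pair overlapped. For Folr4 it was polyclonal Treg, polyclonal non-Treg, monoclonal Treg, monoclonal non-Treg, and the middle pair overlapped. Per kilobase of transcript, levels can be set between genes. In monoclonal Treg libraries A and B, Folr4 was at 113 and 95.1 CPM per kilobase, Nrp1 at 49.8 and 38.1, and Gpr83 at 9.92 and 3.85. In polyclonal Treg libraries, Folr4 was at 344 and 577 CPM per kilobase, Gpr83 at 95.4 and 101, and Nrp1 at 48.7 and 51.2. Folr4 led in the Treg cells of both mice, while Gpr83 stood below Nrp1 in monoclonal and above it in polyclonal Treg cells.

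The 3 genes were also set against Foxp3 in the same library. Gpr83 was at 0.822 and 0.324 CPM per 100 CPM of Foxp3 in monoclonal Treg libraries, against 9.12 and 9.97 in polyclonal Treg libraries. Nrp1 was at 10.9 and 8.44 CPM per 100 CPM of Foxp3 in monoclonal Treg libraries, against 12.2 and 13.2 in polyclonal Treg libraries. Folr4 was at 5.42 and 4.65 in monoclonal Treg libraries, against 19.1 and 33.0 in polyclonal Treg libraries. On this scale, which changes little for Treg cells because Foxp3 itself was close in them, no gene overlapped between the mice, and the gap was narrowest for Nrp1.

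Differences on the log2(CPM + 1) scale came from a limma fit over all genes, in which adding 1 CPM makes differences of low genes look smaller than they are. The monoclonal Treg effect, monoclonal Treg minus monoclonal non-Treg, was -0.48 ± 0.33 for Gpr83, 1.91 ± 0.17 for Nrp1 and 1.32 ± 0.21 for Folr4 (SE). The polyclonal Treg effect, polyclonal Treg minus polyclonal non-Treg, was 3.87 ± 0.33 for Gpr83, 1.66 ± 0.17 for Nrp1 and 1.96 ± 0.21 for Folr4 (SE). Gpr83's polyclonal effect ranked 10th from the highest of 12881 genes, Folr4's 107th and Nrp1's 171st. In the monoclonal mice the ranks from the highest were 160 for Nrp1, 482 for Folr4 and 9974 for Gpr83. Gpr83's monoclonal effect rested on single libraries: it was 0.16 without monoclonal Treg library B and -1.11 without library A.

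The monoclonal minus the polyclonal Treg effect was -4.35 ± 0.47 for Gpr83, the 8th lowest of 12881 genes, -0.64 ± 0.30 for Folr4 and 0.24 ± 0.24 for Nrp1 (SE). Between Treg cells alone, monoclonal minus polyclonal was -3.89 ± 0.33 for Gpr83, -2.10 ± 0.21 for Folr4 and -0.19 ± 0.17 for Nrp1 (SE). Gpr83's mean was 14.3-fold lower and Folr4's 4.43-fold lower in monoclonal than in polyclonal Treg cells. Between non-Treg cells, monoclonal minus polyclonal was 0.46 ± 0.33 for Gpr83, -0.44 ± 0.17 for Nrp1 and -1.46 ± 0.21 for Folr4 (SE). Folr4 was thus below its polyclonal level in both cell types and Gpr83 in Treg cells. Scaled to T cell genes instead of all genes, the monoclonal Treg effect of Folr4 was 0.85, its difference of effects -1.17 and its non-Treg difference -0.97, and the direction turned for Nrp1 in the difference of effects (-0.29) and between non-Treg cells (0.04).

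**Figure D2:**
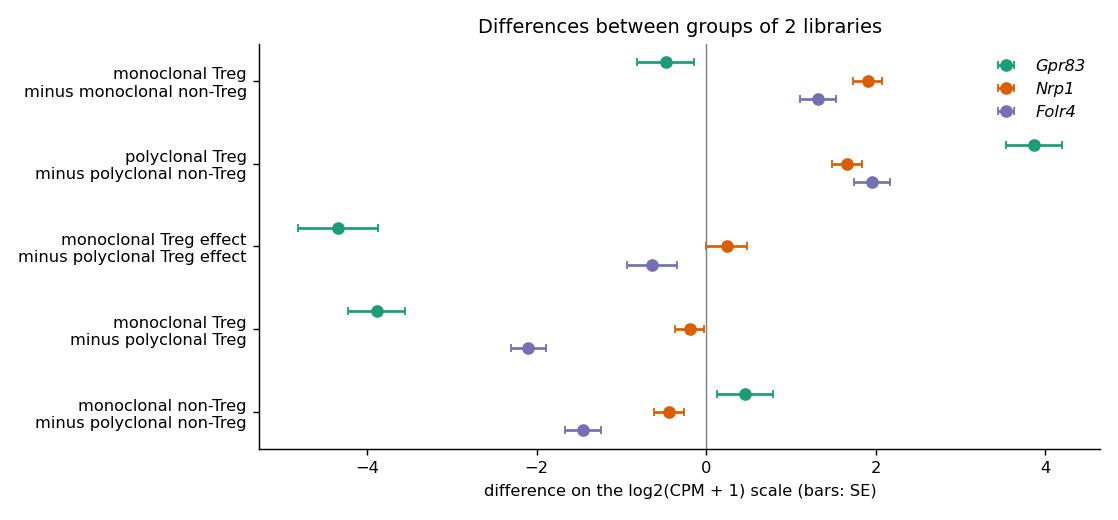
Differences between groups on the log2(CPM + 1) scale (horizontal axis) for Gpr83, Nrp1 and Folr4, with bars for 1 SE, each group having 2 libraries. Gpr83 lies at -0.48 in the monoclonal Treg effect and at 3.87 in the polyclonal one, while Nrp1 lies at 1.91 and 1.66.

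The dendritic cell transcripts of the monoclonal libraries moved with the mouse and with the sort, and their part in these differences was not tested. Other possible sources of Nrp1 were measured through their markers. Plasmacytoid dendritic cells, which carry neuropilin-1 in humans, have 12 listed markers, which summed to 295 to 462 CPM in Treg cells, against 898 to 1104 CPM in non-Treg cells of the monoclonal mice, and to 244 to 247 CPM in polyclonal Treg and 234 to 248 CPM in polyclonal non-Treg cells. The 14 endothelial and stromal markers summed to 238 to 299.6 CPM in monoclonal Treg, 326 to 374 CPM in monoclonal non-Treg, 225 to 226 CPM in polyclonal Treg and 284 to 298 CPM in polyclonal non-Treg cells. Of these 14, 7 to 11 had a read in each group, and Emcn, Pdgfra and Dcn were at 0 reads in every library. Of the 6 that were tested, 1 was higher and 2 were lower in the monoclonal Treg effect (0 and 1 by edgeR). Over all genes tested 10.8% were higher and 13.6% lower in that effect. The 9 neutrophil markers summed to 265 to 1441 CPM in Treg cells, against 85.4 to 485 CPM in non-Treg cells of the monoclonal mice, and to 16.3 to 49.2 CPM in Treg cells, against 14.8 to 37.5 CPM in non-Treg cells of the polyclonal mice. Between monoclonal and polyclonal Treg cells 8 of the 9 were called higher, against 12.1% higher and 12.1% lower over all genes tested. The 14 macrophage and monocyte markers summed to 269 to 320 CPM in Treg cells, against 465 to 534 CPM in non-Treg cells of the monoclonal mice, and to 70.1 to 76.6 CPM in Treg cells, against 58.8 to 60.0 CPM in non-Treg cells of the polyclonal mice. B cell markers summed to 50.1 to 70.0 CPM in monoclonal Treg cells, against 28.9 to 46.5 CPM in polyclonal Treg cells, and to 249 to 308 CPM in monoclonal non-Treg cells, against 46.9 to 69.8 CPM in polyclonal non-Treg cells. Erythroid and platelet markers summed to 93.2 to 187 CPM in monoclonal Treg cells, against 24.5 to 46.2 CPM in polyclonal Treg cells. The part of these transcripts in the differences of the 3 genes was not tested.

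The wider Treg surface programme gave these genes their context. A list of 25 such genes held the 3 genes and 22 others, all tested. In the monoclonal Treg effect 16 of the 22 were higher and 2 lower by limma, with a median log2 difference of 2.33 against -0.02 over all genes tested, of which 10.8% were higher and 13.6% lower. In the polyclonal Treg effect 20 were higher and 0 lower, with a median of 2.01 against 0.00 over all genes tested, of which 4.63% were higher and 3.28% lower. For the count of 0, an unadjusted p under 0.05 also gave 0, as did edgeR and DESeq2. The activation marker Cd83 fell in monoclonal Treg cells by 1.51 ± 0.21 (SE, adjusted p = 0.000158). Ctla4, the inhibitory receptor, was at 676 and 760 CPM in monoclonal Treg cells, against 106 and 86.2 CPM in monoclonal non-Treg cells. Il2ra, the α chain of the interleukin-2 receptor, rose in both Treg effects, by 2.88 ± 0.21 in monoclonal and 4.14 ± 0.21 in polyclonal cells (SE, adjusted p = 6.69e-07 and 3.37e-08).

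Between monoclonal and polyclonal Treg cells the list split. Of the 22 genes 7 were higher and 9 lower, with a median log2 difference of -0.28 against -0.03 over all genes tested, of which 12.1% were higher and 12.1% lower. Lrrc32, which encodes GARP, the docking receptor for latent transforming growth factor β, was at 17.0 and 15.9 CPM in monoclonal Treg cells, against 235 and 234 CPM in polyclonal Treg cells, and fell by 3.75 ± 0.49 (log2, SE, adjusted p = 7.42e-05). Gpr83's difference of -3.89 lay below those of all 22 genes, Lrrc32's being the nearest. The chemokine receptor gene Ccr8 fell by 2.48 ± 0.41 (adjusted p = 0.000507), Cd83 by 2.38 ± 0.21 (adjusted p = 1.82e-06) and the integrin gene Itgb8 by 1.98 ± 0.40 (adjusted p = 0.00222). Folr4's -2.10 lay between Cd83 and Itgb8. In the other direction, Il1rl1, the interleukin-33 receptor, stood at 1377 and 1334 CPM in monoclonal Treg cells, against 53.7 and 85.3 CPM in polyclonal Treg cells, and rose by 4.30 ± 0.22 (adjusted p = 1.46e-08). The inhibitory receptor gene Klrg1 rose by 4.08 ± 0.28 (adjusted p = 1.11e-07), Il10ra by 1.40 ± 0.13 (adjusted p = 3.24e-06) and Tnfrsf18, which encodes GITR, by 1.20 ± 0.22 (adjusted p = 0.0013).

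**Figure D3:**
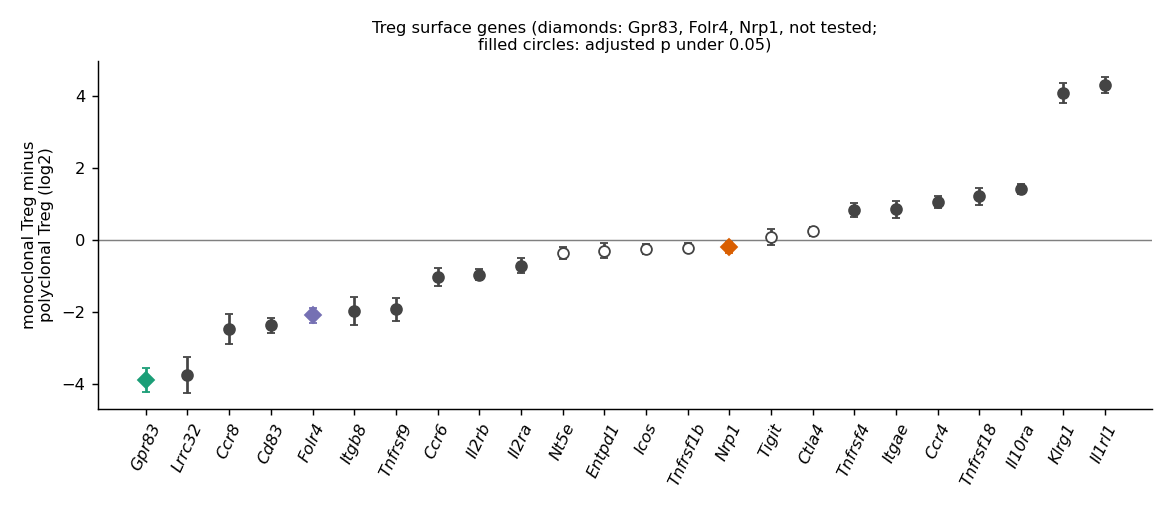
Monoclonal Treg minus polyclonal Treg on the log2(CPM + 1) scale for 24 of the 25 Treg surface genes, from lowest to highest, with bars for 1 SE. Gpr83 at -3.89 lies at the low end beside Lrrc32 at -3.75, Folr4 at -2.10 lies among the lower genes, Nrp1 at -0.19 lies near 0, and Klrg1 and Il1rl1 lie above 4.

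In the difference of the Treg effects, 3 of the 22 genes were higher and 7 lower (1 and 8 when scaled to T cell genes), with 3.64% of all genes tested higher and 5.56% lower. Between monoclonal and polyclonal non-Treg cells 9 were higher and 5 lower (12 and 3 when scaled to T cell genes), with 12.1% of all genes higher and 7.35% lower. Here and below, all shares are those of the main scaling and do not match counts scaled to T cell genes. That scaling moved the median of all genes to -0.53 in the difference of effects. The median moved to -0.455 in the monoclonal Treg effect and to 0.389 between non-Treg cells. Among genes that are used to tell thymic from peripheral Treg cells, Ikzf2, which encodes Helios, was high in the Treg cells of both mice, as Nrp1 was. It was at 1224 and 1409 CPM in monoclonal Treg cells, against 1723 and 1314 CPM in polyclonal Treg cells, a log2 difference of -0.20 ± 0.13 (SE, adjusted p = 0.323). Of the 8 genes of that list other than the 3 described, 1 was higher and 3 were lower in monoclonal than in polyclonal Treg cells, against 12.1% higher and 12.1% lower over all genes tested.

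The ligand genes of neuropilin-1 were followed too. Of 15 listed ligand genes 8 were tested, where 12881 of the 24016 genes of the table were. In the monoclonal Treg effect 1 was lower and 0 were higher by limma, also 0 at an unadjusted p under 0.05, by edgeR and by DESeq2, where 13.6% of all genes tested were lower and 10.8% higher. In the polyclonal Treg effect 1 was higher and 1 lower, or 0 and 1 with libraries scaled to T cell genes, where 4.63% of all genes were higher and 3.28% lower. The lower one was in each case Sema4a, at 61.2 and 63.8 CPM in monoclonal Treg cells, against 265 and 235 CPM in monoclonal non-Treg cells, and at 63.6 and 42.0 CPM in polyclonal Treg cells, against 237 and 208 CPM in polyclonal non-Treg cells. Sema4a fell by 1.98 ± 0.18 and 2.08 ± 0.18 (log2, SE, adjusted p = 2.97e-06 and 3.15e-06), so that the ligand was low where the receptor gene was high, in both mice. Its difference of effects was 0.10 ± 0.25 (SE, adjusted p = 0.85). Tgfb1, whose latent protein neuropilin-1 can bind, was at 200 and 195 CPM in monoclonal Treg cells, against 232 and 293 CPM in monoclonal non-Treg cells, with no call. Tgfb1 was called higher in polyclonal Treg cells by 0.61 ± 0.16 (SE, adjusted p = 0.0344), and by 0.37 (adjusted p = 0.16) without polyclonal Treg library B. That call was also lost without monoclonal Treg library B, monoclonal non-Treg library A or B (0.61 each), or polyclonal non-Treg library A (0.69) or B (0.52).

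Of 18 listed coreceptors and partners of neuropilins 13 were tested. In the monoclonal Treg effect 2 were higher and 4 lower, or 0 and 5 when scaled to T cell genes, and in the polyclonal Treg effect 3 were higher and 0 lower by limma, also 0 at an unadjusted p under 0.05, by edgeR and by DESeq2. Over all genes tested the shares were 10.8% higher and 13.6% lower in the monoclonal effect, and 4.63% higher and 3.28% lower in the polyclonal one. Plxna1, a plexin that signals with neuropilin-1, was at 55.1 and 69.7 CPM in monoclonal Treg cells, against 28.7 and 27.2 CPM in monoclonal non-Treg cells, and at 72.0 and 55.5 CPM in polyclonal Treg cells, against 37.9 and 26.3 CPM in polyclonal non-Treg cells. It rose by 1.12 ± 0.22 and 0.98 ± 0.22 (SE, adjusted p = 0.00187 and 0.0111), the second losing its call without polyclonal Treg library A (0.79) or polyclonal non-Treg library B (0.72). Scaled to T cell genes Plxna1's effects were 0.66 and 1.04, with neither called. Plxnd1 rose in polyclonal Treg cells by 1.52 ± 0.17 (adjusted p = 5.64e-05), and its monoclonal effect was -0.50 ± 0.17 (adjusted p = 0.0514). Plxnb2 and Plxnc1 fell in monoclonal Treg cells, by 2.31 ± 0.27 and 1.65 ± 0.14 (SE, adjusted p = 3.2e-05 and 2.16e-06). Plxnb2 was at 35.3 and 24.1 CPM in monoclonal Treg cells, against 133 and 168 CPM in monoclonal non-Treg cells, and at or under 10.3 CPM in every polyclonal library. The dendritic cell markers were likewise highest in monoclonal non-Treg and low in polyclonal libraries, and their part in this was not tested. The adhesion molecule gene L1cam rose in monoclonal Treg cells by 0.92 ± 0.13 (adjusted p = 0.000145), or 0.45 (adjusted p = 0.2) when scaled to T cell genes. Nrp2, the gene of the other neuropilin, was at 2.69 and 1.86 CPM in Treg cells of monoclonal mice, against 5.38 and 2.77 CPM in their non-Treg cells, and at 7.96 and 4.46 CPM in Treg cells of polyclonal mice, against 11.3 and 4.52 CPM in their non-Treg cells, with no call in any comparison.

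Folr4's relatives were followed as well. The folate receptor genes Folr1 and Folr2 had 0 reads in all 8 libraries, so that of the folate receptor genes listed Folr4 alone had reads. Of 9 listed receptors, carriers and Izumo partners 5 were tested, and 0 were called in either Treg effect by limma, edgeR or DESeq2. At an unadjusted p under 0.05 there was 1 in the monoclonal and 0 in the polyclonal effect. Over all genes tested 24.4% were called in the monoclonal and 7.9% in the polyclonal effect. With 5 genes, a count of 0 cannot be told from these shares. Slc19a1, the reduced folate carrier, was at 14.3 and 19.8 CPM in monoclonal Treg cells, against 32.9 and 44.3 CPM in polyclonal Treg cells, and fell by 1.13 ± 0.25 (log2, SE, adjusted p = 0.00461). Its difference between monoclonal and polyclonal non-Treg cells was -0.85 ± 0.25 (SE, adjusted p = 0.0275), a call lost when scaled to T cell genes. Of 22 enzymes of folate-dependent one-carbon metabolism 18 were tested. Between monoclonal and polyclonal Treg cells 9 were lower and 0 higher by limma, edgeR and DESeq2 alike (1 higher at an unadjusted p under 0.05), with a median log2 difference of -0.63 against -0.03 over all genes tested, of which 12.1% were higher and 12.1% lower, and 6 to 10 were lower over the alternative settings. Between non-Treg cells 1 was lower by limma (1 higher and 0 lower when scaled to T cell genes) and 0 by edgeR or DESeq2, with a median of -0.18 against -0.07 over all genes tested, of which 7.35% were lower and 12.1% higher. The difference between these comparisons, tested as the difference of the Treg effects, was called for 0 of the 18 by limma, edgeR or DESeq2, with 4 lower at an unadjusted p under 0.05. Over all genes tested 9.2% were called in that difference, and with 18 genes a count of 0 cannot be told from this share. Mthfd1, which interconverts folate one-carbon units, was at 28.4 and 36.6 CPM in monoclonal Treg cells, against 66.1 and 88.1 CPM in polyclonal Treg cells, and fell by 1.22 ± 0.19 (adjusted p = 0.000348). Its mitochondrial relative Mthfd1l fell by 0.95 ± 0.21 (adjusted p = 0.00396). Shmt1, a serine hydroxymethyltransferase gene, fell by 2.03 ± 0.48 (adjusted p = 0.0068), or by 1.18 (adjusted p = 0.073) without polyclonal Treg library B.

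The gene of the proposed Gpr83 ligand was not detected. Pcsk1n, the precursor of PEN, and Pcsk2, a processing enzyme, had 0 reads in every library. Prcp, a carboxypeptidase gene of the same list, fell in monoclonal Treg cells by 1.52 ± 0.24 (SE, adjusted p = 0.000452) and was at 23.7 and 23.5 CPM there, against 61.9 and 78.5 CPM in monoclonal non-Treg cells. In non-Treg cells Prcp was higher in the monoclonal mice by 2.67 ± 0.24 (SE, adjusted p = 1.44e-06). The dendritic cell markers moved the same ways, and their part in this was not tested. Of 24 tested genes for G proteins, arrestins and their regulators, 4 were higher and 5 lower in the monoclonal Treg effect (1 and 9 when scaled to T cell genes, 2 and 5 by TMM scaling) and 4 higher and 2 lower in the polyclonal one. Of all genes tested 10.8% were higher and 13.6% lower in the monoclonal effect, and 4.63% higher and 3.28% lower in the polyclonal one. Rgs1, which quenches G protein signals, rose in polyclonal Treg cells by 2.66 ± 0.12 (adjusted p = 1.52e-08), being at 199 and 224 CPM in polyclonal Treg cells, against 32.7 and 32.5 CPM in polyclonal non-Treg cells. In the monoclonal mice it was at 283 and 287 CPM in Treg cells, against 372 and 374 CPM in non-Treg cells. Adrbk2, a kinase gene for activated receptors, was at 156 and 143 CPM in monoclonal Treg cells, against 2.56 and 1.52 CPM in polyclonal Treg cells, and rose by 5.65 ± 0.21 (adjusted p = 4.01e-10). Rgs2 rose in the same comparison by 3.28 ± 0.16 (adjusted p = 1.04e-08). In non-Treg cells, too, both were higher in the monoclonal mice, by 6.27 ± 0.21 and 4.56 ± 0.16 (SE, adjusted p = 8.3e-11 and 1.24e-10), and the dendritic cell markers, which moved the same way, were not tested for a part in this.

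Folr4 and Nrp1 are also counted among genes of anergic T cells. Of the 17 other genes of that list, all tested, 7 were higher and 6 lower in the monoclonal Treg effect, and 2 were higher and 9 lower in monoclonal than in polyclonal Treg cells (2 and 5 when scaled to T cell genes). Of all genes tested 10.8% were higher and 13.6% lower in the first comparison, and 12.1% higher and 12.1% lower in the second. The medians of the list were -0.10 and -0.39, against -0.02 and -0.03 over all genes tested. Nt5e, which encodes CD73, the partner of folate receptor 4 in defining anergic cells, was at 209 and 222 CPM in monoclonal Treg cells, against 43.2 and 29.3 CPM in monoclonal non-Treg cells, and rose by 2.56 ± 0.16 (SE, adjusted p = 2.18e-07). In polyclonal cells it was at 277 and 281 CPM in Treg, against 132 and 127 CPM in non-Treg cells. Like Folr4, Nt5e was lower in the non-Treg cells of monoclonal mice than in those of polyclonal mice: it fell by 1.83 ± 0.16 (log2, SE, adjusted p = 1.03e-06). The anergy-linked transcription factor genes Egr2 and Egr3 fell in monoclonal against polyclonal Treg cells by 2.01 ± 0.21 and 2.36 ± 0.20 (SE, adjusted p = 9.93e-06 and 9.54e-07), and the inhibitory receptor gene Lag3 fell by 2.35 ± 0.44 (adjusted p = 0.00146).

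Follicular helper T cells also carry folate receptor 4. Of 19 listed follicular helper genes other than Folr4, 18 were tested. In monoclonal against polyclonal Treg cells 1 was higher and 13 lower, with a median log2 difference of -1.03 against -0.03 over all genes tested, of which 12.1% were higher and 12.1% lower. In monoclonal against polyclonal non-Treg cells 15 were lower and 0 higher by limma, with a median of -1.13 against -0.07 over all genes tested, of which 7.35% were lower and 12.1% higher. Scaled to T cell genes 9 were lower and 1 higher. By edgeR 11 were lower and by DESeq2 13, and 0 were higher by either or at an unadjusted p under 0.05. The T cell markers fell too: of 15, 12 were lower and 0 higher between non-Treg cells by limma, with a median of -0.71. Between Treg cells 7 of these 15 were lower and 0 higher, with a median of -0.31. The part of this wider fall in the follicular helper counts was not tested. Cxcr5, the chemokine receptor gene that takes cells into B cell follicles, was at 10.1 and 7.17 CPM in monoclonal Treg cells, against 76.4 and 109 CPM in polyclonal Treg cells, and at 15.5 and 12.8 CPM in monoclonal non-Treg cells, against 61.0 and 75.3 CPM in polyclonal non-Treg cells. It fell by 3.27 ± 0.25 between Treg and 2.19 ± 0.25 between non-Treg cells (SE, adjusted p = 2.72e-07 and 1.15e-05). Maf fell between non-Treg cells by 2.51 ± 0.16 (adjusted p = 3.26e-08), and its difference between Treg cells was -0.16 ± 0.16 (adjusted p = 0.524). Il6st, the shared receptor chain of the interleukin-6 family, was at 115 and 116 CPM in monoclonal Treg cells, against 572 and 438 CPM in polyclonal Treg cells, and fell by 2.10 ± 0.13 (adjusted p = 5.37e-08). The transcription factor gene Tcf7 fell in the same comparison by 2.40 ± 0.13 (adjusted p = 1.93e-08), while Cxcr4 rose by 2.07 ± 0.25 (adjusted p = 4.45e-05).

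**Figure D4:**
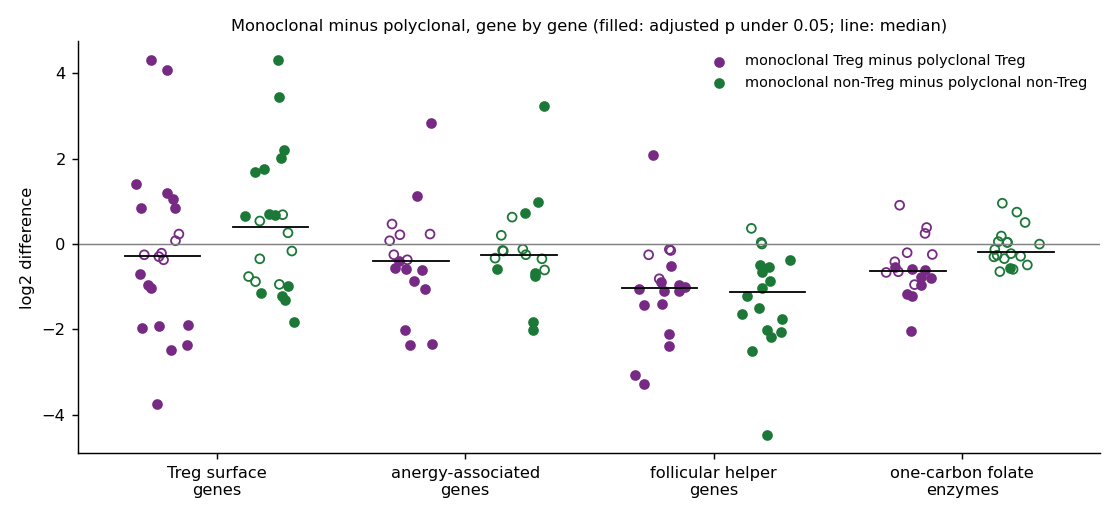
Log2 difference of each tested gene in 4 lists, monoclonal minus polyclonal, in Treg cells (purple) and in non-Treg cells (green), with filled points at an adjusted p under 0.05 and a line at the median. Follicular helper genes lie mostly below 0 in both cell types (medians -1.03 and -1.13), and one-carbon enzymes have medians of -0.63 in Treg and -0.18 in non-Treg cells. The difference between the cell types was called for 0 of these 18 enzymes by limma, against 9.2% of all genes tested, a share from which 0 of 18 cannot be told.

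Genes around the 3 were also measured. Within 500 kb of Gpr83 the table held 19 other genes, Folr4 included, and 13 besides Folr4 were tested. Of these 13, 3 were higher and 2 lower in the monoclonal Treg effect and 1 was higher in the polyclonal one, against 10.8% higher and 13.6% lower, and 4.63% higher, over all genes tested. The difference of effects, called for 9.2% of all genes tested, was called for 0 of them by limma, edgeR or DESeq2, with 1 higher and 1 lower at an unadjusted p under 0.05. Endod1, a gene for an endonuclease domain protein, was the neighbour that rose in both Treg effects, by 1.26 ± 0.15 and 1.04 ± 0.15 (SE, adjusted p = 3.25e-05 and 0.000326). It was at 88.5 and 85.6 CPM in monoclonal Treg cells, against 134 and 152 CPM in polyclonal Treg cells, and fell by 0.71 ± 0.15 (adjusted p = 0.00276). Fut4, a fucosyltransferase gene, lay 108131 bases from Gpr83 and went the other way: it fell in monoclonal Treg cells by 2.24 ± 0.41 (adjusted p = 0.00132) and was at 5.19 and 7.34 CPM there, against 28.4 and 38.1 CPM in monoclonal non-Treg cells and under 3 CPM in the polyclonal libraries. The dendritic cell markers were likewise highest in monoclonal non-Treg and low in polyclonal libraries, and their part in Fut4's fall was not tested. Taf1d was called higher in monoclonal Treg cells (0.77 ± 0.21, adjusted p = 0.0142), but not without monoclonal Treg library B (0.52) or monoclonal non-Treg library B (0.61). Kdm4d was too (1.72 ± 0.44, adjusted p = 0.0104), but not without the same libraries (1.39 and 1.58). 5830418K08Rik was called lower there (-0.53 ± 0.17, adjusted p = 0.0345), but not without monoclonal Treg library A (-0.42), monoclonal non-Treg library A (-0.63) or B (-0.42), or either polyclonal non-Treg library (-0.53). Cwc15 and 4931406C07Rik were called higher in monoclonal than in polyclonal Treg cells (0.65 ± 0.21 and 0.91 ± 0.26, SE, adjusted p = 0.0346 and 0.0222). Cwc15 lost its call without any 1 of the 4 monoclonal libraries (0.65 each) or polyclonal Treg library A (0.27), and 4931406C07Rik at 0.77 without polyclonal Treg library B and 0.78 without monoclonal Treg library B did so too. Amotl1, Piwil4, Ankrd49, Mre11a, Panx1 and Med17 were not called in any comparison.

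**Figure D5:**
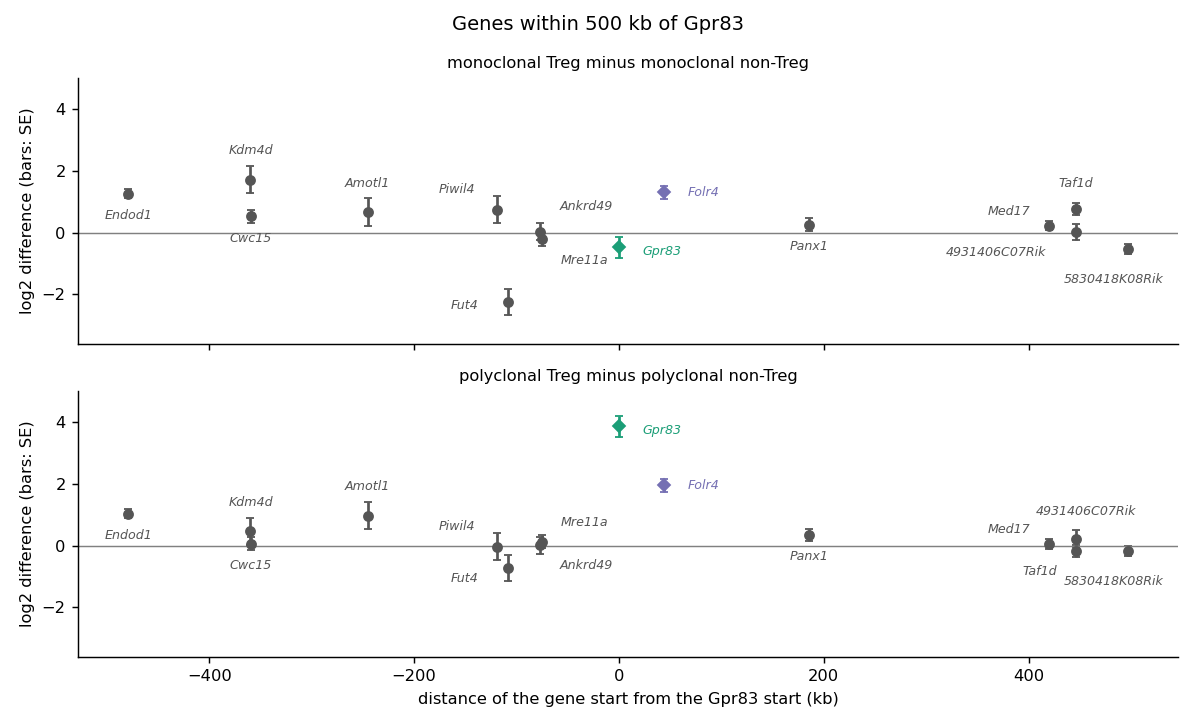
Treg effects on the log2(CPM + 1) scale of tested genes within 500 kb of Gpr83, against the distance of each gene's start from Gpr83's start in kilobases, with bars for 1 SE. Gpr83 and Folr4 stand above their neighbours in the polyclonal effect at 3.87 and 1.96, and in the monoclonal effect Gpr83 lies at -0.48 and Folr4 at 1.32.

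Near Nrp1 the integrin gene Itgb1, 180178 bases away, was at 997 and 1245 CPM in monoclonal Treg cells, against 379.95 and 382 CPM in monoclonal non-Treg cells, and at 915 and 958 CPM in polyclonal Treg cells, against 1128 and 1110 CPM in polyclonal non-Treg cells. It rose in monoclonal Treg cells by 1.55 ± 0.12 (adjusted p = 9.66e-07), and its polyclonal effect was -0.26 ± 0.12 (SE, adjusted p = 0.263).

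Some genes followed the 3 genes across the 8 libraries. They are given as a description: the libraries form 4 groups, and the correlation is Pearson's r of log2(CPM + 1) among 9539 genes averaging 3 or more on that scale. Nearest to Gpr83 were Rcn1 (r = 0.980), Zkscan17 (0.978), Trappc9 (0.976), Pla2g4f (0.968) and Ecm1 (0.967). Pla2g4f, a phospholipase A2 gene, averaged 5.59 CPM in monoclonal Treg, 13.9 in monoclonal non-Treg, 76.0 in polyclonal Treg and 7.54 in polyclonal non-Treg cells. Ecm1, an extracellular matrix protein gene, averaged 28.7 CPM in monoclonal Treg, 30.2 in monoclonal non-Treg, 149 in polyclonal Treg and 36.0 in polyclonal non-Treg cells. Nearest to Nrp1 were Trim59 (0.997), Gm12250 (0.989), Tigit (0.983), Gbp2b (0.982) and Pip5k1b (0.978). Tigit, an inhibitory receptor gene, averaged 89.9 CPM in monoclonal Treg, 16.0 in monoclonal non-Treg, 86.7 in polyclonal Treg and 20.4 in polyclonal non-Treg cells. Nearest to Folr4 were Sec14l1 (0.989), Slc41a1 (0.984), Kcnf1 (0.983), C1qtnf6 (0.982) and Zfp646 (0.981). Kcnf1, a potassium channel subunit gene, averaged 45.9 CPM in monoclonal Treg, 18.8 in monoclonal non-Treg, 132 in polyclonal Treg and 41.6 in polyclonal non-Treg cells. Among themselves the 3 genes were less alike, with r of 0.811 for Gpr83 and Folr4, 0.774 for Nrp1 and Folr4 and 0.572 for Gpr83 and Nrp1.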

How the data were processed

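RNA was sequenced from 8 libraries, 4 groups of 2, as single-end reads of 50 bp after poly-dT selection with strand kept, per the labels' protocols. Tools named, without roles, in the submitters' processing notes were STAR 2.4.1a, Trimmomatic 0.33, edgeR, HOMER 4.7, FastQC 0.10.1 and CASAVA 1.8.2, with the build mm9. The authors deposited CPM per gene, each library summing to 1000000; 100% of values were whole reads within 0.01 read, so reads were recovered. No sample column was left unused. Reads that match several genes were counted in a way not given in the sources used here.

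Because the unit was CPM, limma 3.58.1 in R 4.3.3 was run on log2(CPM + 1) with trend and robust settings, 1 mean per group over all 8 libraries (4 residual and a median of 10 prior degrees of freedom), on genes with at least 1 CPM in 2 libraries or more. For each of 5 comparisons, 2-sided p-values were adjusted by Benjamini-Hochberg across the 12881 genes and called at 0.05. edgeR 4.0.16 and DESeq2 1.42.0 on recovered reads, other scalings, pseudocounts and filters, and leaving out each library were alternatives. The scripts were tested on simulated data. Genes named beside the 3 were called list genes averaging 2 or more on the log2 scale (up to 4 each way per comparison), ligands and receptors described, markers, the 5 genes most correlated with each and those within 500 kb. Other list genes named, such as Maf in a comparison where it was not called, were chosen after their values were seen. Some list genes enter the counts but are not reported by name here. The 3 genes and all lists were chosen with earlier results of these data known. The labels do not say whether A and B pair libraries across groups, and the main fit did not pair them. Correlations of deviations between groups ran from -0.093 to 0.0969. They were highest between Treg and non-Treg cells of the same mice, at 0.0969 (monoclonal) and 0.0752 (polyclonal). Low correlations cannot exclude shared animals. Promoter windows came from RefSeq on GRCm38.p6, and gene positions from the deposited table on mm9.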

Additional observations from a re-analysis of the deposited data

Results flagged for a closer look

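The Treg effect (Treg minus non-Treg) differed between monoclonal and polyclonal mice for 21 of the genes described from the lists and the neighbourhoods, by limma's test of the difference itself. Over all genes tested 9.2% were called in this difference. Many of the genes described were named because they were called in some comparison, so the count of 21 is partly set by that choice. Genes given for their correlation with the 3 were not taken up here. Values are the monoclonal minus the polyclonal effect on the log2(CPM + 1) scale with SE, and p-values are Benjamini-Hochberg adjusted.

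Among Treg and activation genes the difference was -1.89 ± 0.17 for Foxp3 (adjusted p = 2.42e-05), -1.25 ± 0.30 for Il2ra (0.0188), -2.80 ± 0.70 for Lrrc32 (0.0223) and -4.57 ± 0.30 for Cd83 (1.83e-06). For Foxp3, on whose reporter the cells were sorted, monoclonal minus polyclonal was 0.215 ± 0.122 between Treg cells (SE, adjusted p = 0.228). Between non-Treg cells Foxp3 differed by 2.10 ± 0.122 (SE, adjusted p = 1.31e-08). The difference of the Treg effects was 1.46 ± 0.23 for Nt5e (0.00141) and 1.80 ± 0.17 for Itgb1 (2.64e-05). For genes raised after T cell receptor stimulation it was -3.00 ± 0.30 for Egr2 (4.71e-05), -2.56 ± 0.28 for Egr3 (8.89e-05) and -2.22 ± 0.62 for Lag3 (0.0392).

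Among genes linked to Nrp1 it was -2.02 ± 0.25 for Plxnd1 (0.000183), -3.15 ± 0.38 for Plxnb2 (0.000174), -2.09 ± 0.20 for Plxnc1 (3.01e-05), 1.19 ± 0.18 for L1cam (0.00112) and -1.01 ± 0.23 for Tgfb1 (0.0141). Among genes linked to G protein signalling or peptide processing it was -1.67 ± 0.35 for Prcp (0.00772), -3.05 ± 0.17 for Rgs1 (3.92e-07) and -1.28 ± 0.23 for Rgs2 (0.00349). Among follicular helper genes it was -2.10 ± 0.19 for Il6st (1.96e-05), -1.90 ± 0.18 for Tcf7 (3.52e-05), 2.35 ± 0.22 for Maf (3.02e-05) and 2.04 ± 0.35 for Cxcr4 (0.00304).

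Of these, 6 lost the call without a single library. Il2ra kept it without monoclonal Treg library A or monoclonal non-Treg library B, and lost it without any of the other 6 (lowest size -0.81, without monoclonal non-Treg library A). Lag3 kept it without monoclonal Treg library A alone (-1.31 without monoclonal Treg library B). Lrrc32 lost it without monoclonal Treg library B (-2.76), monoclonal non-Treg library A (-1.91), polyclonal Treg library A (-2.80) or polyclonal non-Treg library B (-2.17), and by edgeR and DESeq2 (adjusted p = 0.0890 and 0.424). Tgfb1 lost it without monoclonal Treg library B (-0.99), monoclonal non-Treg library B (-0.84) or polyclonal non-Treg library B (-0.92). Prcp lost it without monoclonal non-Treg library B (-1.50) or polyclonal non-Treg library B (-1.48), and Cxcr4 without polyclonal Treg library A (1.76). L1cam and Nt5e lost it when libraries were scaled to the Cd3 genes (0.65 and 0.93, adjusted p = 0.256 and 0.0940).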

How the results depend on the processing

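Scaling the libraries to equal Cd3 gene levels shifted the median of all genes to -0.46 in the monoclonal Treg effect, -0.53 in the difference of effects and 0.39 between non-Treg cells. On that scale Nrp1 had a monoclonal Treg effect of 1.44, a difference of effects of -0.29 and a non-Treg difference of 0.044, and Folr4 had 0.85, -1.17 and -0.97; 552 genes were called in the polyclonal Treg effect and 1795 between Treg cells. With no filter on low values 756 genes were called for the difference of effects. With only the compared libraries fitted, 1841 were called between Treg cells and 4437 between non-Treg cells. Over all alternatives other than leaving out a library, Gpr83 ranged from -0.93 to -0.39 in the monoclonal Treg effect. Its range was -4.85 to -4.02 in the difference of effects and 0.395 to 0.92 between non-Treg cells.

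Leaving out each library in turn, Gpr83 ranged from -1.11 to 0.16 in the monoclonal Treg effect, from -4.98 to -3.71 in the difference of effects and from -4.52 to -3.25 between Treg cells. Nrp1 ranged from 1.65 to 2.17 in the monoclonal Treg effect, from -0.016 to 0.50 in the difference and from -0.70 to -0.18 between non-Treg cells. Folr4 ranged from 1.58 to 2.33 in the polyclonal Treg effect, from -1.01 to -0.27 in the difference and from -2.47 to -1.72 between Treg cells. Genes called ranged from 1300 to 3780 in the monoclonal Treg effect, 435 to 1236 in the polyclonal one, 395 to 1663 for the difference and 1370 to 3227 between non-Treg cells.

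Whether libraries of the same letter share an animal or a batch is not given in the labels. A replicate block left the differences as they were (Gpr83 -0.48 in the monoclonal Treg effect) and gave 3032, 945, 1094, 2969 and 2393 called genes in the 5 comparisons. Of values for the 3 genes under all alternatives, 243 moved by less than the replicate spread and 24 by more. Of list counts 678 stayed within 1.5 times and 123 did not. Of named genes 2235 kept their direction and call status and 137 lost a call. The cause of these changes was not tested.

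With 2 libraries per group, and nothing in the labels to say that they came from separate animals, p-values cover only the spread between these libraries. The lowest count of the 3 genes was 153 reads, for Gpr83 in monoclonal Treg library B, and counting error weighs most on genes near 1 CPM, such as Kdm4d. The monoclonal libraries hold marker transcripts of dendritic cells, neutrophils and macrophages, and their part in the differences was not tested.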
